A study of Mus musculus with 6 samples.

Results

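The genes described here encode the machinery that copies DNA in S phase, together with the enzymes that supply its nucleotides and the factors that pack the new DNA. They are a list of 49 genes given by name, and no measured value enters the rule, although earlier results of these data were known when the list was drawn up. Of the 49, 48 were measured, among 22180 genes tested. Rfc4, which encodes a subunit of the clamp loader, shares its only row of the table with another gene and was not analysed here. For a gene with several rows, the brightest row was used.

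Expression was measured on single-colour arrays in mouse embryonic stem cells (ESCs) with both copies of Dgcr8 deleted, in 3 control hairpin samples and 3 miR-302 samples. Dgcr8 is the RNA-binding partner of Drosha, and cells without it make no canonical miRNAs, so the control cells lack them too. The control samples carry a control hairpin (shctrl), and the miR-302 samples express a mimic of miR-302 from a hairpin construct (sh-miR-302). The labels give no promoter for the construct, no clone, no time after its introduction, and no member of the miR-302 family, and the submitters describe the samples of each group as biologically independent. Dgcr8 has no row of its own in the table, and its level was not analysed here.

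Replication begins in G1, when the origin recognition complex, Cdc6 and Cdt1 load the MCM helicase onto origins. At the G1 to S transition kinases activate the helicase with Cdc45 and the GINS complex, and polymerases, a sliding clamp and its loader then copy both strands. Many of these genes are transcribed in late G1 by E2F factors once retinoblastoma proteins are released from them. Mouse ESCs pass through G1 quickly and spend much of their cycle in S phase, and miR-302 and its relatives are known to help them enter S phase.

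The seed of a miRNA, its bases 2 to 8, directs it to its targets. It is shown in capitals for the mature 3p arms of miR-302 that the RefSeq miRNA table (GRCm38.p6) holds. miR-302a-3p is not among them. The arms are given because expression of this family is what separates the groups. All 3 arms shown lie on the plus strand of chromosome 3, at chr3:127545275-127545297, chr3:127545406-127545427 and chr3:127545665-127545687.
mmu-miR-302b-3p: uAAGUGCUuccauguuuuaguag
mmu-miR-302c-3p: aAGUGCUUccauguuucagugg
mmu-miR-302d-3p: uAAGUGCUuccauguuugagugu
miR-302b-3p and miR-302d-3p share the seed AAGUGCU. In the table's miR-302c-3p the same 7 letters stand at bases 1 to 7, because that entry starts 1 base later.

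Values are log2 expression levels, and a log2 fold change is the mean of the miR-302 arrays minus the mean of the control arrays. A gene is called when the limma test gave an adjusted p under 0.05 over all 22180 genes. With 3 arrays a group, precision is limited. Within the control group the SD of the difference between 2 arrays over all genes was 0.201 to 0.217. In the miR-302 group it was 0.204 between replicates 2 and 3 but 0.339 between replicate 1 and either of them, so miR-302 replicate 1 stood apart. Of 8 ESC marker genes, such as Pou5f1, Nanog and Sox2, 7 lay at or above the median level of all genes on every array, and Dppa5a did not. Limma called 0 of the 8, and 2 of them had an unadjusted p under 0.05.

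Of the replication genes a minority passed the test, and most of those were lower with miR-302. Of 48 measured members, 11 were lower (Rpa2, Tk1, Chaf1b, Orc5, Pole2, Pola1, Pole, Mcm6, Rrm1, Tyms and Lig1), 2 were higher (Orc6 and Gins3) and 35 were not called. The share called was 22.9% lower and 4.17% higher. Among all genes tested 9.25% were lower and 7.18% higher, and among the 11090 genes at or above the median level, where all 48 members lie, 15.9% were lower and 10.9% higher. The median log2 fold change of the members was −0.14, beside 0.01 for all genes and −0.03 for genes at or above the median level. Of the members, 38 (79.2%) had a change below 0, beside 48.5% of all genes and 53.8% of genes at or above the median level. No list test was made, so these shares are a description. With a trend and robust prior 18 members were lower (37.5%) and 2 higher (4.17%), where 11.6% and 9.10% of all genes were. In a fit of the upper level range alone the members were 17 (35.4%) and 2 (4.17%), where 22.4% and 16.4% of genes were called. At a change of 1.5-fold or more they were 3 (6.25%) and 0, against 4.17% and 2.87% of all genes. Without miR-302 replicate 1 the counts were 13 lower (27.1%) and 2 higher (4.17%), where 13.1% and 11.2% of all genes were called. Without any 1 of the other arrays 5 or 6 were lower (10.4% to 12.5%) and 0 to 2 higher (0.00% to 4.17%). In those fits 4.70% to 5.48% of all genes were lower and 3.09% to 3.88% higher. Except in the fit of the upper level range, the comparison is with all genes, although all 48 members lie in that range. The 5 genes Rpa2, Tk1, Chaf1b, Pole2 and Pola1 were called lower in all 6 fits that left out 1 array.

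In 26 members (54.2%) every miR-302 array lay below every control array, and in 4 every one lay above. In the upper level range (genes not below the median) the groups were apart in this way in 30.6% and 23.1%, and among all genes in 19.0% and 16.8%. Of the 35 members not called, 15 had all miR-302 arrays lower, 2 had them all higher, and in 18 the groups overlapped. The shares above include called genes, and a share for genes not called was not computed, so these counts are a description. The log2 fold changes of these 35 members ran from −0.24 to 0.16, and their 95% intervals all lay between −0.44 and 0.36. In 7 of the 35 the 95% interval, which is not adjusted for the number of genes, did not include 0. The arrays are of bulk RNA, so fewer cells in S phase and less RNA of these genes per cell cannot be told apart.

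**Figure D1:**
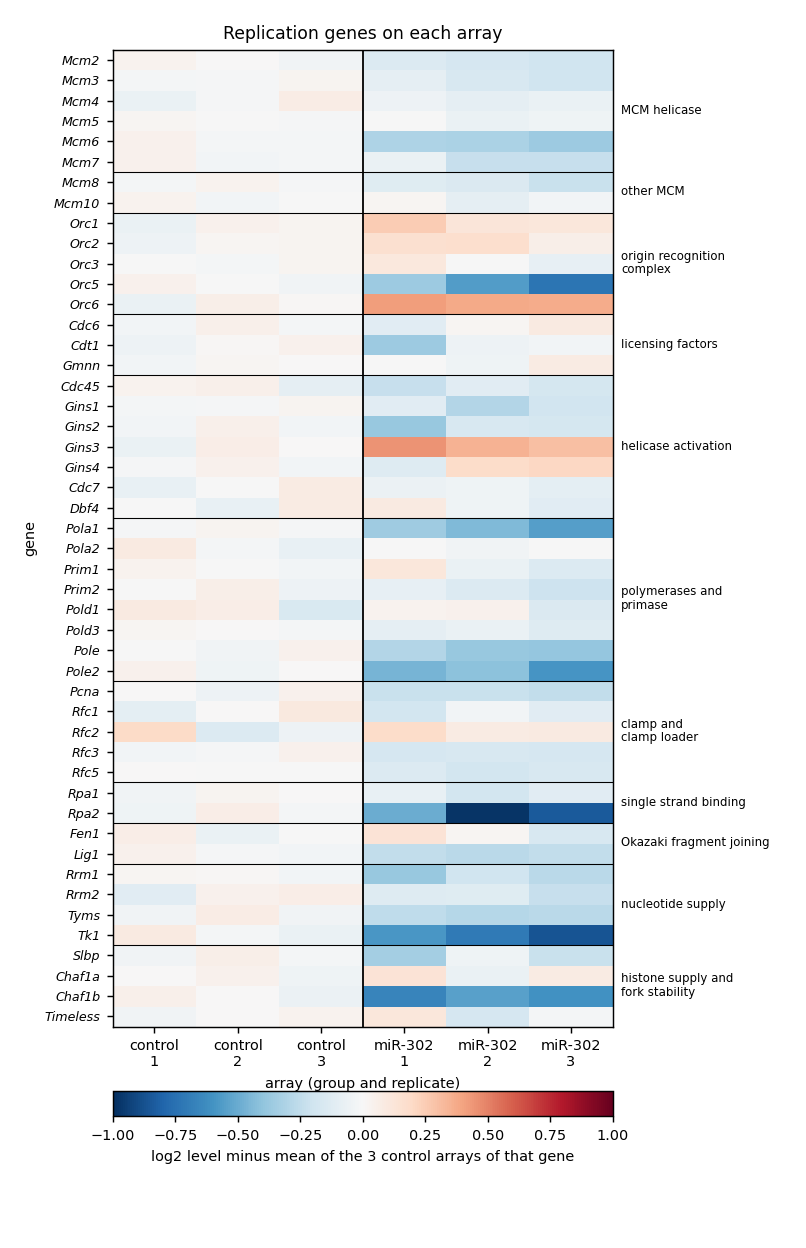
Log2 level of each of the 48 measured replication genes on each of the 6 arrays (columns), as the difference from the mean of that gene's 3 control arrays (colour, blue lower and red higher), with genes grouped by role. The miR-302 columns are mostly pale blue, with darker blue for Rpa2, Tk1, Chaf1b, Orc5, Pole2 and Pola1 and orange for Orc6 and Gins3.

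Markers of other cell types are set beside all genes, of which 9.25% were lower and 7.18% higher. Of 7 trophectoderm markers 5 were higher with miR-302 (71.4%) and none lower. Their mean log2 level was 6.65 to 6.76 on the control arrays and 7.90 to 8.63 on the miR-302 arrays, lowest on replicate 1. The keratin genes Krt18 and Krt8 changed most, by 4.03 and 3.31, and so weigh most in this mean. Gata3 changed by 1.48 and Eomes by 1.36, and the median change of the 7 was 1.36. Of 7 primitive endoderm markers 3 were higher (42.9%) and 1 (Gata4) lower (14.3%), with a mean of 5.39 to 5.52 and 5.68 to 5.80. Of 9 fibroblast markers 1 (Thy1) was lower (11.1%) and none higher, with a mean of 5.18 to 5.23 and 5.28 to 5.43. Thy1 was called in 1 of the 6 fits without 1 array. A level on these arrays has no true 0, and low levels cannot be told from background. The part of these cell types in the changes of the replication genes was not tested. The mean of the 8 ESC markers was 10.29 to 10.32 on control arrays and 10.13 to 10.41 on miR-302 arrays, which overlap.

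Orc5 was lower and Orc6 higher among the 5 measured genes of the origin recognition complex (20.0% each). Among genes at or above the median level 15.9% were lower and 10.9% higher. The complex marks origins, and its Orc1 to Orc5 subunits form the ring that Orc6 joins. Orc6 measured 10.85, 10.98 and 10.93 on the control arrays and 11.34, 11.30 and 11.29 with miR-302. All 3 miR-302 arrays were higher, by at least 0.31, and the log2 fold change was 0.39 ± 0.07 (SE, adjusted p = 0.0121). Orc5 measured 9.90, 9.85 and 9.82 in control cells and 9.49, 9.30 and 9.13 with miR-302. Its 3 miR-302 values were all lower and more spread (SD 0.18 against 0.04), and the change was −0.55 ± 0.10 (adjusted p = 0.0144), not called without moderation of the variance. Of the 6 fits without 1 array, Orc5 was called in 2 and Orc6 in 4. Orc1, the largest subunit, and Orc2 changed by 0.16 (adjusted p = 0.212) and 0.13 (adjusted p = 0.269), with all miR-302 arrays above all control arrays in both. Orc3 changed by 0.01, with a 95% interval from −0.17 to 0.19.

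The factors that load the helicase gave no call. Cdc6 recruits the MCM ring with the origin recognition complex, Cdt1 brings it there, and Gmnn (geminin) blocks Cdt1 after licensing. Limma called 0 of these 3, and 0 had an unadjusted p under 0.05. Cdc6 averaged 10.07 ± 0.04 (SD, n = 3) in control cells and 10.07 ± 0.10 with miR-302. Cdt1 averaged 11.24 ± 0.05 and 11.09 ± 0.19, where replicate 1 measured 10.88 and replicates 2 and 3 measured 11.19 and 11.21. Gmnn averaged 8.15 ± 0.03 and 8.16 ± 0.07. In all 3 genes the groups overlapped.

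Of the 6 subunits of the MCM2-7 helicase, which unwinds DNA at the fork, 1, Mcm6, was called lower (16.7%). That share is near the 15.9% of genes at or above the median level. Mcm6 measured 11.68, 11.62 and 11.62 on control arrays and 11.33, 11.32 and 11.28 on miR-302 arrays. The groups were 0.29 apart and tight, and the change was −0.33 ± 0.06 (SE, adjusted p = 0.0170). Of the 6 fits without 1 array it was called in 1, the fit without miR-302 replicate 1. The other 5 subunits also had negative changes, from −0.17 to −0.04. Mcm2 changed by −0.17 (adjusted p = 0.137) and Mcm7 by −0.17 (adjusted p = 0.180), and in both, as in Mcm3, all miR-302 arrays lay below all control arrays. With Mcm6 the groups were apart in this way in 4 of the 6 (66.7%), beside 30.6% of genes at or above the median level. With a trend and robust prior Mcm2, Mcm3 and Mcm7 were called lower too. In a fit of the upper level range or without moderation Mcm2 was, and without miR-302 replicate 1 Mcm7 was. In Mcm4 and Mcm5 the groups overlapped. Mcm8, which acts in recombination repair, changed by −0.16 (adjusted p = 0.157), and Mcm10, which helps to start the fork, by −0.03 (adjusted p = 0.818).

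Among the 7 genes that turn the loaded helicase on, 1, Gins3, was higher (14.3%) and 0 were lower. Among genes at or above the median level 10.9% were higher and 15.9% lower. Gins1 to Gins4 encode the GINS complex, which with Cdc45 makes the MCM ring active, and Cdc7 with its activator Dbf4 is the kinase that triggers this. Gins3 measured 8.90, 9.04 and 8.97 in control cells and 9.42, 9.32 and 9.27 with miR-302. Every miR-302 array was above every control array, by at least 0.23, and the change was 0.37 ± 0.08 (SE, adjusted p = 0.0214). Of the 6 fits without 1 array it was called in 2. Gins2 averaged 10.10 ± 0.05 and 9.86 ± 0.12 (adjusted p = 0.109) and Gins1 averaged 9.14 ± 0.03 and 8.94 ± 0.09 (adjusted p = 0.127). Both Gins2 and Gins1 were called lower in a fit of the upper level range. With a trend and robust prior Gins2 was, and without miR-302 replicate 1 Gins1 was. In these subunits, and in Cdc45 with a change of −0.17, all miR-302 arrays were the lower ones. Gins4, Cdc7 and Dbf4 had overlapping groups, with changes of 0.09, −0.07 and −0.02.

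**Figure D2:**
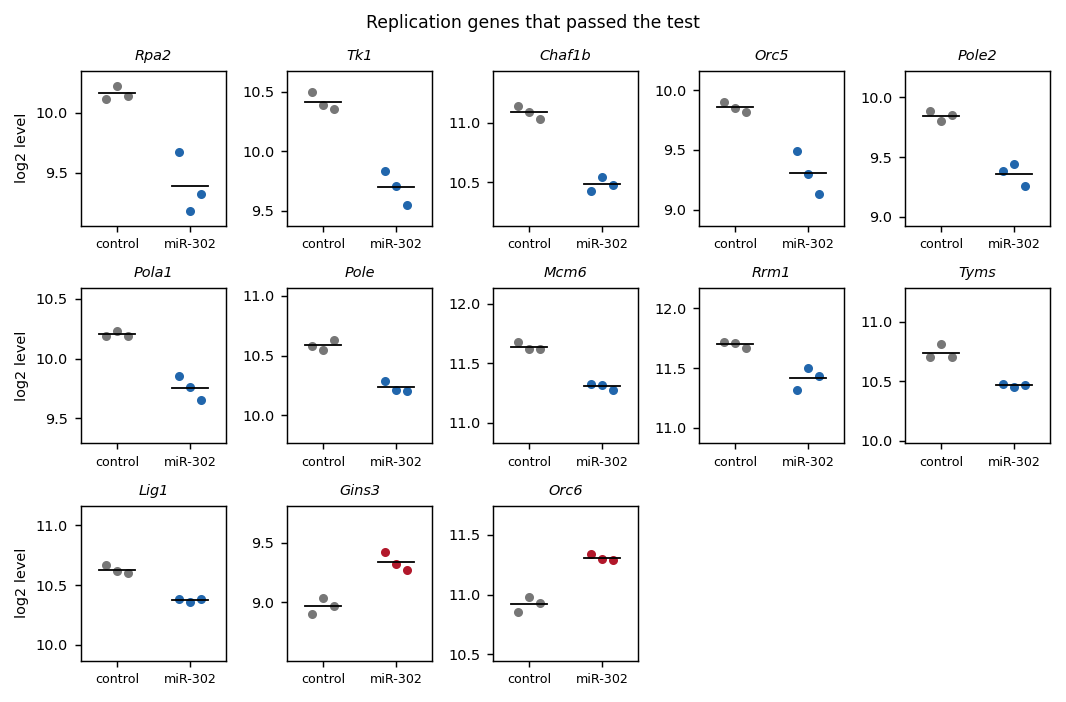
Log2 level on each array (points) and group mean (lines) of the 13 replication genes that passed the test, ordered by change, every panel spanning an equal range of log2 levels. In none of the 13 do the control and miR-302 points overlap, and the spread among miR-302 arrays is widest for Rpa2 and Orc5.

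Of the 8 polymerase and primase genes 3 were lower (37.5%) and 0 higher, beside 15.9% and 10.9% of genes at or above the median level. Pola1 encodes the catalytic subunit of polymerase alpha, which with primase starts each new strand. It measured 10.19, 10.23 and 10.19 in control cells and 9.85, 9.76 and 9.65 with miR-302. The groups were 0.34 apart, and the change of −0.45 ± 0.08 (SE, adjusted p = 0.0105) was called in all 6 fits without 1 array. Its partner genes in the same complex were not called: Pola2, Prim1 and Prim2 changed by −0.02, −0.03 and −0.14. Pole2, the second subunit of the leading strand polymerase epsilon, measured 9.89, 9.80 and 9.85 and then 9.38, 9.44 and 9.26. That is a change of −0.49 ± 0.08 (adjusted p = 0.00802), with a gap of 0.36 between the groups, and it too was called in all 6 fits. Pole, its catalytic subunit, measured 10.58, 10.55 and 10.63 and then 10.29, 10.21 and 10.20, a change of −0.35 ± 0.07 (adjusted p = 0.0159), called in 1 of the 6 fits. The fainter of the 2 rows of Pole gave −0.31, and the mean of both rows was not called. Of the lagging strand polymerase delta, Pold1 changed by −0.02 (adjusted p = 0.923) and Pold3 by −0.10 (adjusted p = 0.368).

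The clamp and its loader gave no call, but most of their genes lay on the lower side. Pcna encodes the ring that tethers polymerases to DNA, and the Rfc subunits load it. Limma called 0 of the 5 measured, and 3 had an unadjusted p under 0.05, all lower. Pcna measured 12.29, 12.23 and 12.33 in control cells and 12.06, 12.06 and 12.04 with miR-302. Its groups were 0.17 apart, and its change of −0.23 ± 0.07 missed the threshold narrowly (adjusted p = 0.0583). Pcna, Rfc3 and Rfc5 were called lower with a trend and robust prior and in a fit of the upper level range alone. Rfc3 and Rfc5 changed by −0.17 (adjusted p = 0.131) and −0.16 (adjusted p = 0.138), with groups 0.13 apart in each. The groups overlapped in Rfc1 and Rfc2, where the changes were −0.11 and 0.12.

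Rpa2 showed the largest change among the 48 members over all 6 arrays, although without miR-302 replicate 2 it changed by −0.67 and Tk1 by −0.72. It encodes the middle subunit of replication protein A, the trimer that coats single-stranded DNA and is phosphorylated under replication stress. Rpa2 measured 10.12, 10.23 and 10.14 in control cells and 9.67, 9.18 and 9.32 with miR-302. All 3 miR-302 arrays were lower by at least 0.45, with replicate 1 the least so, and the change was −0.77 ± 0.13 (SE, adjusted p = 0.0102), or 58.5% of the control level. Without miR-302 replicate 1 it was also called, as in each other fit without 1 array, but a test without moderation of the variance did not call it. Rpa1, the large subunit, changed by −0.12 (adjusted p = 0.279). Rpa3, the small subunit and not a listed member, was also lower, with a change of −0.39 ± 0.08 (adjusted p = 0.0212) that was called in 1 of the 6 fits.

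Okazaki fragments, the short pieces of the lagging strand, are trimmed by Fen1 and sealed by Lig1. Lig1 measured 10.67, 10.62 and 10.60 and then 10.38, 10.36 and 10.38. The miR-302 values lay within 0.02 of each other and 0.22 below the lowest control, and the change was −0.26 ± 0.06 (SE, adjusted p = 0.0376). The call held in 1 of the 6 fits. Fen1 averaged 8.58 ± 0.07 (SD, n = 3) and 8.58 ± 0.15 (adjusted p = 0.987), and its fainter row changed by −0.30, so its rows differ.

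Of the 4 nucleotide supply genes 3 were called lower (75.0%), beside 15.9% of genes at or above the median level. Among these 3 only Tk1 was called when any array but miR-302 replicate 1 was left out. Tk1 encodes thymidine kinase, which salvages thymidine in S phase. It measured 10.50, 10.39 and 10.35 in control cells and 9.83, 9.71 and 9.55 with miR-302. The groups were 0.52 apart, and Tk1 was at 60.9% of its control level with miR-302 (log2 fold change −0.72 ± 0.09 SE, adjusted p = 0.00451), called in all 6 fits. Tyms, which makes thymidylate from deoxyuridylate, measured 10.70, 10.81 and 10.70 and then 10.48, 10.45 and 10.47, a change of −0.27 ± 0.07 (adjusted p = 0.0393). Rrm1 encodes the large subunit of ribonucleotide reductase, which makes the deoxynucleotides, and measured 11.72, 11.71 and 11.67 and then 11.32, 11.50 and 11.43. Rrm1 changed by −0.28 ± 0.07 (adjusted p = 0.0450) and was not called without moderation. Of the 6 fits without 1 array, Rrm1 and Tyms were called in 1, the fit without miR-302 replicate 1. Rrm2, the small subunit that rises in S phase, changed by −0.16 (adjusted p = 0.235), and its fainter row by 0.03.

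Chaf1b had the smallest adjusted p of the members. It encodes the middle subunit of chromatin assembly factor 1, which places histones on new DNA at the fork. It measured 11.14, 11.09 and 11.03 in control cells and 10.43, 10.54 and 10.48 with miR-302. The groups were 0.49 apart, and the change was −0.60 ± 0.07 (SE, adjusted p = 0.00318), or 65.8% of the control level, called in all 6 fits. Chaf1a, the large subunit, averaged 9.37 ± 0.04 (SD, n = 3) and 9.42 ± 0.11 (adjusted p = 0.737). Slbp binds the stem-loop of histone mRNAs, and Timeless protects the stalled fork. Slbp changed by −0.20 (adjusted p = 0.200) and Timeless by −0.02 (adjusted p = 0.898).

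**Figure D3:**
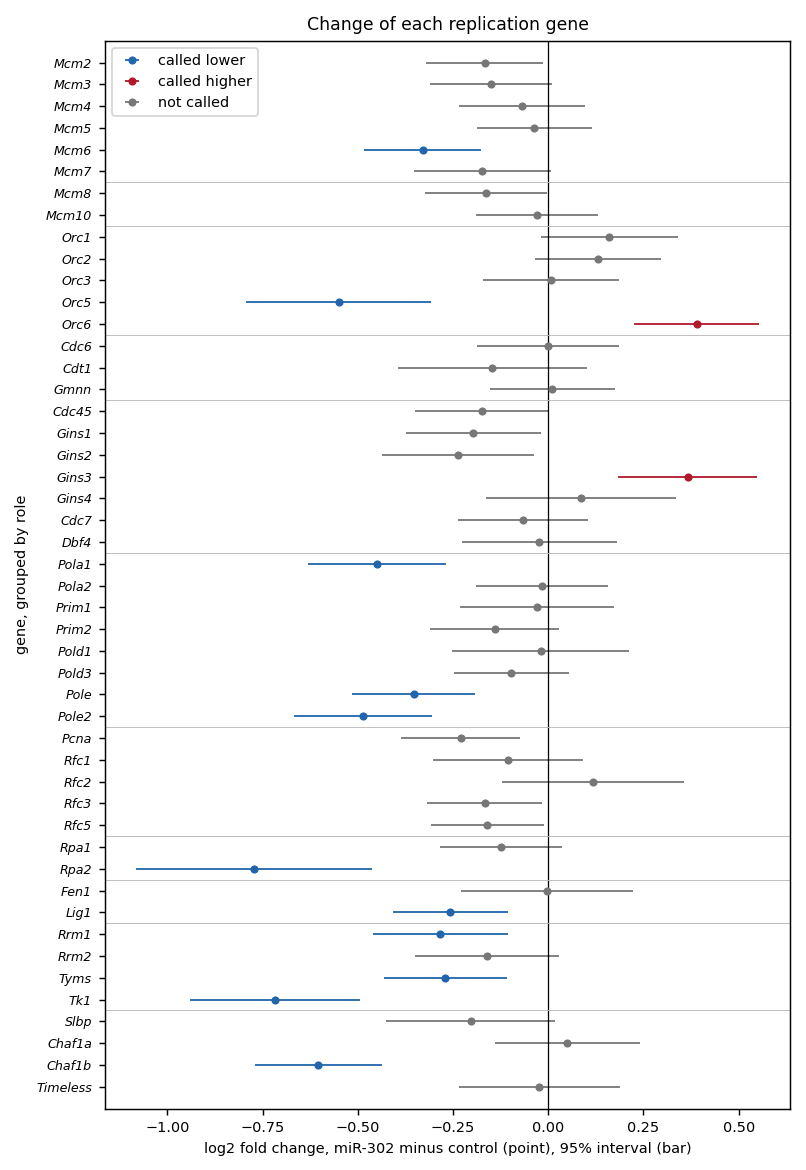
Log2 fold change of each of the 48 measured replication genes (points) with its 95% interval from limma (bars), grouped by role in the order MCM helicase, other MCM, origin recognition, licensing, helicase activation, polymerases, clamp and loader, single strand binding, Okazaki fragments, nucleotide supply, and histones and fork. Rpa2, Tk1 and Chaf1b lie farthest to the left, and 2 genes, Orc6 and Gins3, are called to the right of 0.

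Within a complex some subunits were called and others were not, and 7 pairs, chosen after their values were seen, are set side by side as a description with no test. Within each array, Orc6 minus Orc5 was 0.95 to 1.13 in control cells and 1.85 to 2.16 with miR-302, a change of 0.94. Chaf1b minus Chaf1a changed by −0.65, Rpa2 minus Rpa1 by −0.65, and Pola1 minus Pola2 by −0.43. In polymerase epsilon, Pole2 minus Pole3 changed by −0.80, where Pole3 (not a listed member) was higher by 0.31 ± 0.07 (SE, limma, adjusted p = 0.0328), called in 1 of the 6 fits without an array. Gins3 minus Gins1 changed by 0.56 and Mcm6 minus Mcm5 by −0.29.

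**Figure D4:**
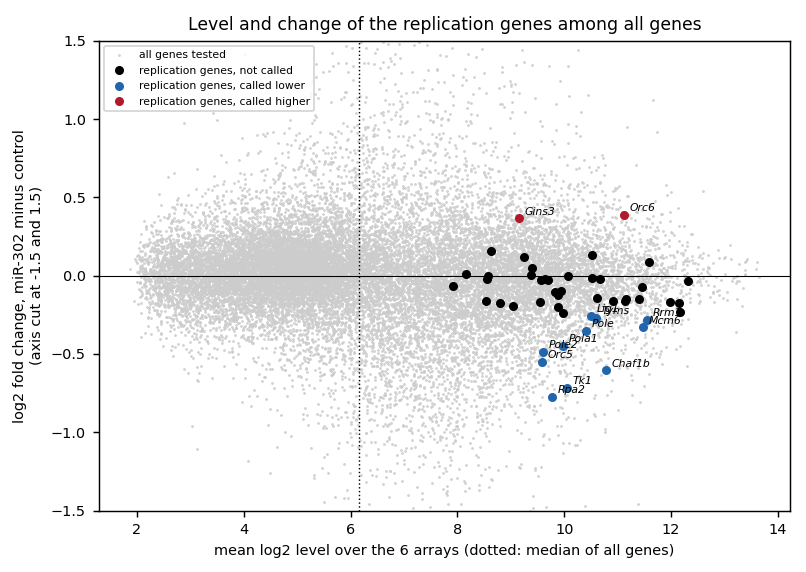
Log2 fold change (vertical axis, cut at a size of 1.5 in each direction) against mean log2 level over the 6 arrays (horizontal axis) for all 22180 genes (grey) and the 48 measured replication genes (black when not called, blue when lower, red when higher). The replication genes all lie to the right of the dotted median level, where a larger share of all genes is called.

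The neighbouring genes of the pathway were described by the same counts. In 4 further lists of the pathway, 76 distinct genes were measured, of which 20 were lower (26.3%), 3 higher (3.95%) and 53 not called, with a median log2 fold change of −0.12. All 76 lie at or above the median level, where 15.9% of genes were lower and 10.9% higher, beside 9.25% and 7.18% of all genes. Without miR-302 replicate 1 they were 28 lower (36.8%) and 4 higher (5.26%), and without any 1 of the others 6 to 8 lower (7.89% to 10.5%) and 1 higher (1.32%), beside the shares of all genes given above for those fits. Of 33 other replication genes 9 were lower (27.3%) and 1, Pole3, higher (3.03%). The lower ones included Pold2, the second subunit of polymerase delta, from 11.44 ± 0.06 (SD, n = 3) to 10.86 ± 0.05, and Pclaf, a PCNA-binding factor, from 10.21 ± 0.09 to 9.74 ± 0.08. Mcm9, the partner of Mcm8, changed by −0.45 ± 0.08 (SE, adjusted p = 0.0119).

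Of 17 other nucleotide synthesis genes 5 were lower (29.4%) and 0 higher by limma (1 had an unadjusted p under 0.05 and a change above 0). Among genes at or above the median level 15.9% were lower and 10.9% higher. Dck, the deoxycytidine kinase of the salvage route that Tk1 serves for thymidine, fell from 9.21 ± 0.05 (SD, n = 3) to 8.51 ± 0.03 (adjusted p = 0.00166). The serine hydroxymethyltransferase genes Shmt2 and Shmt1, which supply one-carbon units for thymidylate, changed by −0.44 ± 0.07 and −0.27 ± 0.06 (SE). Samhd1, which degrades deoxynucleotides, was also lower (−0.42 ± 0.09). The calls of Shmt1 and Samhd1 each held in 1 of the 6 fits without an array, and those of Dck and Shmt2 in all 6.

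Of 11 replication checkpoint genes 2 were lower (18.2%) and 1 higher (9.09%), near the 15.9% and 10.9% of genes at or above the median level. Chek1, the kinase that restrains origins when forks stall, changed by −0.38 ± 0.07 (SE, adjusted p = 0.0147), and Atr, the kinase that activates it, by −0.29 ± 0.08 (adjusted p = 0.0480). Cdc25a, the phosphatase that Chek1 opposes, was higher by 0.25 ± 0.07 (adjusted p = 0.0465). Of the 6 fits without an array Chek1 was called in 2, Atr in 1 and Cdc25a in 1, and Atr and Cdc25a were not called after median centring or quantile normalization. Of Atrip, the partner of Atr, the change was −0.34 (adjusted p = 0.0659).

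Of 15 regulators of S phase entry 4 were lower (26.7%) and 1 higher (6.67%). All 15 lie at or above the median level, where 15.9% of genes were lower and 10.9% higher. The activating factor gene E2f2 changed by −0.91 ± 0.10 (SE) and the repressor gene E2f6 by 0.59 ± 0.09, while E2f1 and E2f3 changed by 0.02 (adjusted p = 0.928) and 0.06 (adjusted p = 0.773). E2f1 and E2f3 were chosen after their values were seen. The pocket protein gene Rbl1 changed by −0.48 ± 0.07 (adjusted p = 0.00729), called in all 6 fits without an array, and Rbl2 by −0.76 ± 0.14 (adjusted p = 0.0152), called in 2 of them.

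Histone genes carried by the replication-dependent clusters were found through their older symbols. Of 30 measured, 4 were lower (13.3%), 0 higher (limma; 1 had an unadjusted p under 0.05 and a change above 0) and 26 not called, where 9.25% of all genes were lower. Of the 30, 19 lie at or above the median level, where 15.9% of genes were lower. The changes that stood out belong to a pair made mainly in testis: H2ac1 fell from 9.63 ± 0.07 (SD, n = 3) to 7.67 ± 0.18, and H2bc1 from 5.54 ± 0.29 to 3.71 ± 0.37. Every value of H2bc1 lay below the median level of all genes (6.16), and low levels cannot be told from background. H2bc14 and H1f1 changed by −0.48 ± 0.11 and −0.38 ± 0.09 (SE), called in 2 and 1 of the 6 fits without an array, where the testis pair was called in all 6. Copies of these genes are nearly identical, so signal may be shared between them, and their mature mRNAs mostly lack a poly(A) tail.

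**Figure D5:**
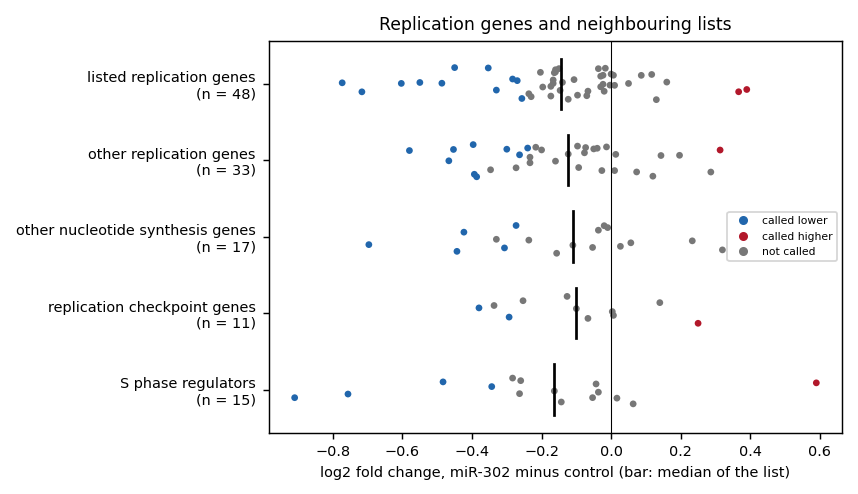
Log2 fold change of each gene (points) in the listed replication genes and in 4 neighbouring lists, coloured by call, with the median of each list (black bar); vertical jitter has no meaning. The 5 medians lie between −0.16 and −0.10, and each list spreads to both sides of 0.

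Promoters were read from the RefSeq promoter table (GRCm38.p6; 250 bases before to 50 after each start), which holds 41 of the 49 members. The E2F consensus searched was TTT, then 2 letters each C or G, then CGC, on either strand. It was found in 16 of 41 members (39.0%), against 2.60% of the 27025 genes in the table and 4.99% of those at or above the median level. Among members called lower it was found in 4 of 10 (40.0%), and among members not called in 11 of 28 (39.3%). CCAAT, the letters bound by NF-Y, was found on either strand in 23 members (56.1%), against 41.1% of all genes, and in 4 of 10 of the lower members. A match describes letters and is not a measured site.

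The 150 bases before the start are shown for 4 members that were lower, to set promoters with E2F matches beside others. Each runs 5′ to 3′ towards the gene, with E2F and CCAAT matches of either strand in capitals. Mcm6 lies at chr1:128359706-128359855 and Pola1 at chrX:93632156-93632305, both on the minus strand, Tk1 at chr11:117826015-117826164 on the minus strand, and Chaf1b at chr16:93883751-93883900 on the plus strand.
Mcm6: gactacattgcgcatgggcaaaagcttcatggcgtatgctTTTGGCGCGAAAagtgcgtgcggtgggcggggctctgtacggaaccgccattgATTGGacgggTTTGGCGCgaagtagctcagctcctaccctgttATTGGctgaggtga
Pola1: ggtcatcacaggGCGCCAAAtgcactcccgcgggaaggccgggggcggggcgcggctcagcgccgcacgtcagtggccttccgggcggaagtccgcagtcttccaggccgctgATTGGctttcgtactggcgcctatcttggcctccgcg
Tk1: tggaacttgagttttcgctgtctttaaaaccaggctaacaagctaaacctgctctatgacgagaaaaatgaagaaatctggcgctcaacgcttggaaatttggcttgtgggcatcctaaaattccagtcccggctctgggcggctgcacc
Chaf1b: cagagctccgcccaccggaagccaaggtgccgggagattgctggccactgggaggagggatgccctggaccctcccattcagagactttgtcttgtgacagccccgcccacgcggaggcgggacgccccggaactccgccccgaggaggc
The Mcm6 window holds 3 E2F matches, of which 2 overlap on opposite strands from 110 and 106 bases before the start, and 1 begins at 47. It also holds 2 CCAAT matches on the opposite strand. Pola1 holds 1 E2F match at 138 bases and 1 CCAAT match at 37. Tk1 and Chaf1b, whose changes were larger, hold neither in these 150 bases, and this says only that these letters are not in this window.

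The 5 genes outside the list whose levels followed the mean of the 13 called members most closely over the 6 arrays were Pgm2, Xrcc6, Lap3, Dglucy and Fmc1, with Pearson r from 0.9985 to 0.9996. All 5 were lower with miR-302, with log2 fold changes from −1.35 to −0.32. With 6 arrays in 2 groups such a likeness follows largely from the difference between groups and is a description.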

How the data were processed

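Total RNA of 6 samples was biotin-labelled and hybridised to single-colour arrays, 1 per sample, per the labels' protocols. The authors processed the arrays with RMA (background correction, quantile normalization between arrays, probe summary), per the submitters' processing notes. For the software and its version, the sources used here give nothing. A log2 scale was assumed for the deposited values, because RMA writes base 2 and no source states it. RMA equalises the arrays' distributions and hides any global shift in expression.

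Rows were named through the platform annotation: 23521 of 33649 rows have a single gene, 1814 several and 8314 none. For a gene with several rows, the brightest was used. Symbols of histone genes were matched through RefSeq synonyms (30 of 70 genes measured), because the symbols planned matched none.

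Each gene was tested with limma 3.58.1 (R 4.3.3; lmFit, eBayes, two-sided), with Benjamini-Hochberg adjustment over 22180 genes. Intervals are 95% from the moderated test. The fit was tested on simulated data. Figures used matplotlib 3.10.9. Members and lists were chosen with earlier results of these data known. Named are all called members, up to 2 others per role, up to 4 genes per other list and the genes most like the called members; a further few are given by value to complete a complex. Other settings tried were a block for replicate number, leaving out each array, genes of the upper level range alone, a trend with robust prior, median centring, quantile normalization, the mean of a gene's rows, no moderation, and a fold of at least 1.5.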

Additional observations from a re-analysis of the deposited data

How the results depend on the processing

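Of the 13 members called, all kept their call without miR-302 replicate 1, at or above the median level, with a trend and robust prior, with median centring and with quantile normalization, 12 with the mean of a gene's rows and 10 without moderation. No call changed direction. RMA had already applied quantile normalization to the deposited values, and the array medians ran only from 5.6 to 5.62. Centring medians or repeating that normalization could therefore change the values only slightly. Calls kept under those settings say little about how far the calls depend on processing. The members' median stayed between −0.15 and −0.12 when any 1 array was left out. Genes called lower and higher over all genes were 1043 to 2911 and 685 to 2484 with 1 array left out, 1343 and 998 without moderation, and 925 and 636 at 1.5-fold or more. Members called lower were 5 to 13 and higher 0 to 2 with 1 array left out; 17 and 2 among genes at or above the median level, where 22.4% and 16.4% of genes were called; 18 and 2 with a trend and robust prior, where 11.6% and 9.10% were; and 3 (Rpa2, Tk1 and Chaf1b) and 0 at 1.5-fold or more. Genes of the 4 neighbouring lists were 6 to 28 lower (7.89% to 36.8%) and 1 to 4 higher (1.32% to 5.26%) with 1 array left out. With a trend and robust prior they were 31 (40.8%) and 5 (6.58%), beside 11.6% and 9.10% of all genes. In the fit at or above the median level they were 29 (38.2%) and 5 (6.58%), beside 22.4% and 16.4%. At 1.5-fold or more they were 3 (3.95%) and 1 (1.32%), near the 4.17% and 2.87% of all genes. The cause of these differences was not tested.

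Samples with the same replicate number did not deviate together (correlations 0.0192, 0.0167 and 0.00845 of their deviations from group means), and control replicate 3 correlated best with miR-302 replicate 2, so the numbers are not taken as pairs. With the replicate block 1329 genes were lower (5.99%) and 964 higher (4.35%). Of the members 6 were then lower (12.5%) and 0 higher, and of the neighbouring lists 9 were lower (11.8%) and 1 higher (1.32%). Signal over background was not analysed here, so low levels cannot be told from background.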
